A study of Mus musculus with 8 samples.

Results

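The genes described here encode the collagen chains, the laminin chains, and the nidogens and heparan sulfate proteoglycans found with them in basement membranes. They were chosen by symbol alone: every gene named as a collagen alpha chain (*Col1a1*, *Col4a5* and so on), every gene named as a laminin alpha, beta or gamma chain, and *Nid1*, *Nid2*, *Hspg2* and *Agrn*. The rule found 59 genes among the 24823 of the count table, and 56 of them had enough counts to be tested, beside 15257 genes tested in all. RNA was sequenced from whole ovaries of mice on a C57BL/6 background at postnatal day 4 (PND4), in 8 libraries. The 4 libraries labelled CON came from *Nr5a2* f/f littermates that carried no *Amhr2*-cre (+/+). The 4 libraries labelled cKO came from *Nr5a2* f/f mice that also carried *Amhr2*-cre (Tg/+), so floxed alleles were present in both groups and Cre only in cKO. The LoxP sites flank exons 4 and 5 of *Nr5a2*, which encodes the orphan nuclear receptor LRH-1. The *Amhr2* promoter drives Cre in granulosa cells of all follicle stages and in the ovarian surface epithelium, and recombination in other ovarian cells was not measured in these files. The study asked which transcripts change when the receptor is lost around the end of primordial follicle formation, and the comparison here is cKO against CON for the matrix genes.

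A basement membrane is a thin sheet of extracellular matrix on which epithelial cells rest. Laminins, each built of an alpha, a beta and a gamma chain, form a polymer that is anchored to cells through integrins and dystroglycan, and type IV collagen forms a second network that nidogens and perlecan tie to the first. In the ovary such a sheet encloses every follicle and separates its granulosa cells from the stroma, and others lie under the surface epithelium and around vessels. Fibrillar collagens fill the stroma between the follicles, and the fibril-associated, type VI and other collagens link these fibrils to each other, to cells and to basement membranes.

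The libraries held 14649243 to 29066847 reads in genes, of which the 59 genes took between 4.15% and 5.26%. Values are counts scaled to library size (CPM) after TMM scaling, and libraries carry the column numbers of the count table. The level of *Nr5a2* itself was 18.4, 16.3, 15.0 and 12.2 CPM from CON 1 to CON 4, and it was 31.0, 23.1, 27.9 and 27.8 CPM from cKO 1 to cKO 4. It was thus higher in every library labelled cKO, with a log2 fold change of 0.82 (SE 0.13 and adjusted p in edgeR = 0.0128). This count covers the whole gene, exons outside the deleted ones included, so it does not measure the deletion and cannot check the labels, and every direction below is that between libraries as labelled. *Amhr2* had a log2 fold change of -0.59 (SE 0.16, adjusted p = 0.0539). The 8 markers of pre-granulosa cells were present in every library, with sums of 593 to 728 CPM in CON against 682 to 888 CPM in cKO. All 8 oocyte markers had a positive log2 fold change (49.9% of all genes) and 2 of them passed the test (3.64% of all genes did so as higher). Their summed level was 347 to 553 CPM in CON against 576 to 719 CPM in cKO. All 8 smooth muscle and pericyte markers had a negative log2 fold change (50.1% of all genes) and 0 passed. At an unadjusted p under 0.05 in edgeR 2 of them were lower (13.3% of all genes). Their sums were 2360 to 3288 CPM in CON against 738 to 2586 CPM in cKO. In these whole-ovary libraries, fewer cells of a type and less RNA per cell cannot be told apart.

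Fibrillar collagen transcripts led the matrix RNA of the PND4 ovary. Per kilobase of exon, *Col1a1* and *Col3a1*, the main chains of type I and type III fibrils, stood highest, with medians over the 8 libraries of 1330 and 1276 CPM per kb and ranges that overlapped (1231 to 1683 and 996 to 1437). *Col1a2*, the partner of *Col1a1*, followed at 518 CPM per kb, and then the type VI chains *Col6a1* at 436 and *Col6a2* at 258. *Col4a1* at 163 CPM per kb and *Col4a2* at 120, which form the common type IV trimer of basement membranes, came next with the fibrillar chain *Col5a1* between them at 158, and *Nid1* and *Nid2* stood at 108 and 104. Among laminins, *Lamc1*, *Lamb1* and *Lamb2* stood above every alpha chain, and the lowest of their values in any library was 36.1 CPM per kb, where the highest of any alpha chain was 25.75 (*Lama5* in cKO 1). The alpha chains were led by *Lama4* with 17.5 CPM per kb, followed by *Lama5* with 13.9, *Lama1* with 10.4, *Lama2* with 8.54 and *Lama3* with 2.27. The exon length joins the exons of all annotated transcripts of a gene, so the order per kb depends on it. It is 6563 bases for *Col1a1*, 12426 for *Col1a2*, 4380 for *Col6a1* and 8326 for *Col6a2*. In CPM alone *Col6a2* stood above *Col6a1*, with means of 2133 against 1879 in CON and 2107 against 1864 in cKO. *Col10a1*, the collagen of hypertrophic cartilage, had 0 counts in every library, and *Col9a1* and *Col19a1* had at most 0.345 and 0.432 CPM, and these 3 genes were not tested.

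**Figure D1:**
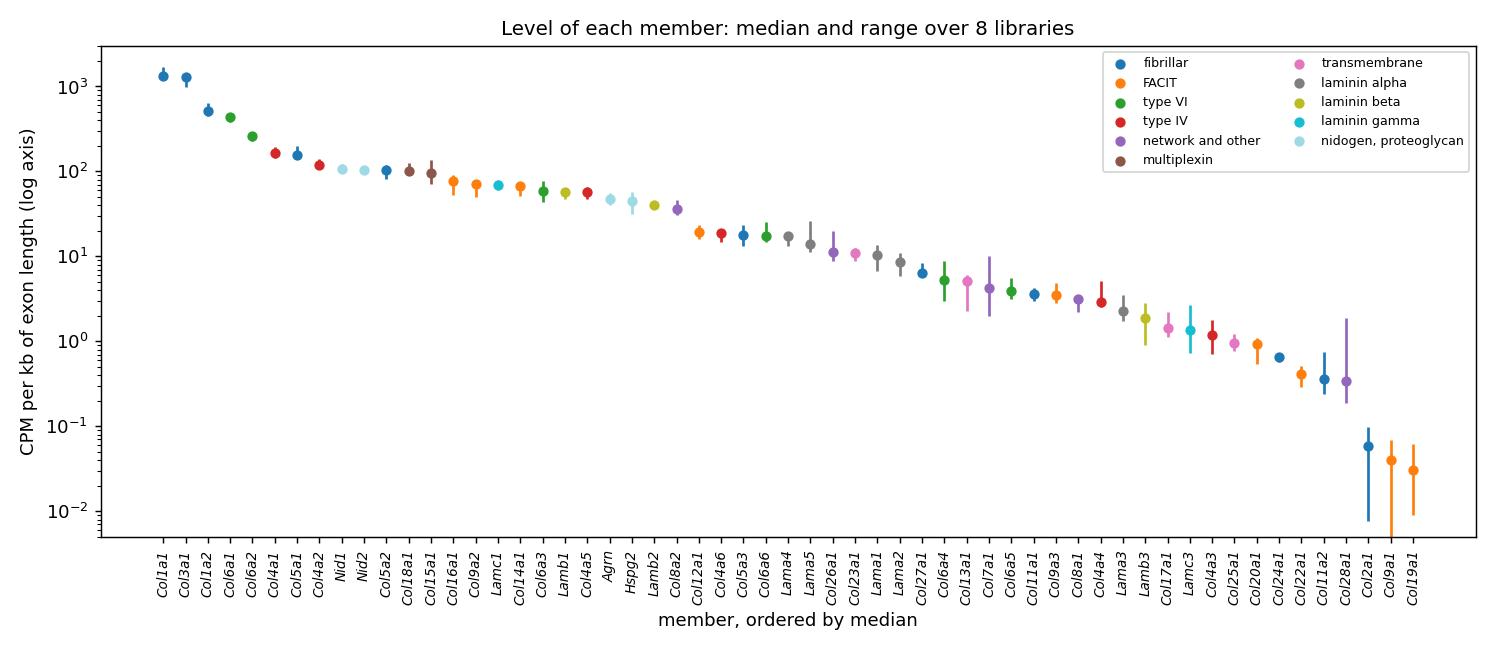
Level of each gene in CPM per kb of exon length (log axis), ordered by the median; points are medians and lines the range over 8 libraries, coloured by gene class. The levels run from 1330 CPM per kb for *Col1a1* down to the cartilage collagens, and *Col10a1*, with 0 counts, and 1 gene not reported here are left out.

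In cKO 3 laminin chains rose and 1 type VI collagen chain fell, while the fibrillar, type IV and other collagens held no gene that passed the test across all genes. With edgeR and a Benjamini-Hochberg adjusted p under 0.05, 3 of the 56 tested genes were higher in cKO, or 5.36%, where 3.64% of all 15257 genes were higher. They were *Lama1*, *Lama2* and *Lamb1*. Only *Col6a4* was lower, or 1.79% of the 56, where 3.28% of all genes were lower. With a fold change of at least 1.5 as well, *Lama1* and *Col6a4* were called, and the background was 0.891% of genes higher and 0.518% lower. The share called was therefore near that of all genes in both directions. At an unadjusted p under 0.05, 7 of the 56 were higher and 7 lower, 12.5% each, against 15.5% and 13.3% of all genes. The 4 cKO values all lay above the 4 CON values in 4 genes, *Lama1*, *Lamb1*, *Col18a1* and *Col20a1*, and 8.95% of all genes showed this. They all lay below in 5 genes, *Col6a4*, *Col4a5*, *Col4a6*, *Col9a2* and *Col26a1*, against 9.10% of all genes. The median log2 fold change of the 56 genes was 0.08 and that of all genes 0.00, and 37 of the 56, or 66.1%, were positive, against 49.9% of all genes, and 19, or 33.9%, negative, against 50.1%.

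Several edgeR calls were lost with 1 library left out. With CON 2, CON 3, cKO 2 or cKO 3 left out, edgeR called 0 of the 56 genes in either direction. Without CON 2 or CON 3 it called 0 of all genes. It called 0.605% of all genes higher and 1.13% lower without cKO 2, and 0.528% and 0.9% without cKO 3. At an unadjusted p under 0.05, 5 to 8 of the 56 were higher and 6 to 8 lower, and the share of all genes was not counted there. Without CON 4 edgeR called only *Col6a4* (1.79% of the 56), where it called 0.228% of all genes higher and 0.637% lower. DESeq2 called 5 genes higher and 6 lower with all libraries, or 9.09% and 10.9% of the 55 it tested, where it called 7.99% and 6.65% of all genes. The genes *Lama1*, *Lama2*, *Lamb1* and *Col6a4* were called by it in all 8 fits with 1 library left out. CON 1 and CON 3 held more neutrophil marker RNA (78.3 and 144 CPM in sum) than the other 6 libraries (9.61 to 19.5 CPM), and without both only *Lama1* was called (1.79% of the 56, against 0.491% of all genes higher and 0.523% lower).

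**Figure D2:**
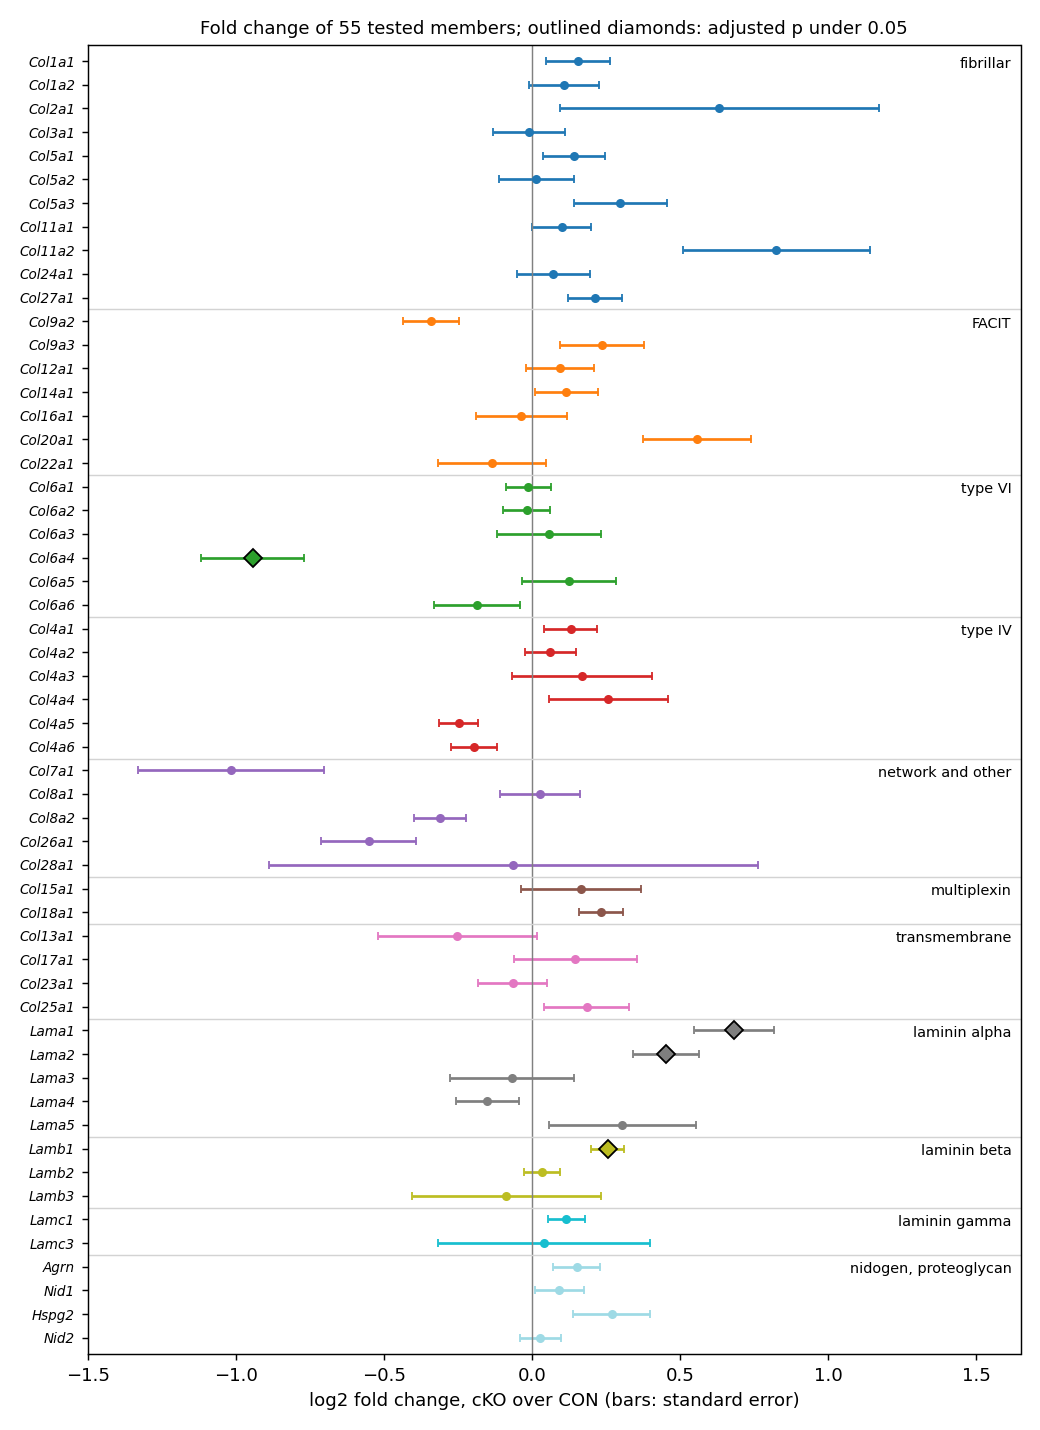
Log2 fold change of cKO over CON for 55 of the 56 tested genes, grouped by class, with the standard error of each as a bar; outlined diamonds mark an adjusted p under 0.05 (edgeR). *Lama1*, *Lama2* and *Lamb1* lie to the right and *Col6a4* to the left, and *Col7a1* lies as far left with a wider error.

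*Lama1* encodes the laminin alpha 1 chain, the main alpha chain of the early embryo and of some epithelial basement membranes in the adult. The gene (ID 16772; GRCm38 chromosome 17, 67697127 to 67822645, plus strand) had 96.0, 64.5, 65.4 and 66.4 CPM from CON 1 to CON 4 and 131, 124, 108 and 105 CPM in cKO 1 to cKO 4. All cKO libraries lay above all CON libraries, and CON 1 stood apart from the other CON libraries, near the lowest cKO value. The mean rose from 73.1 ± 15.3 to 117 ± 12.6 CPM (SD, n = 4), a log2 fold change of 0.68 (SE 0.14, adjusted p in edgeR = 0.0284). Leaving out 1 library moved the log2 fold change between 0.61 and 0.84 and the adjusted p between 0.00778 without CON 1 and 0.103 without CON 3. The call was lost when any of CON 2, CON 3, CON 4, cKO 2 and cKO 3 was left out. The summed oocyte markers also did not overlap between the groups, and their part in the laminin values was not tested.

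*Lama2* encodes the alpha 2 chain, the chain of muscle and nerve laminins that binds dystroglycan. The gene (ID 16773; chromosome 10, 26981285 to 27617191, minus strand) had 140.0, 117, 96.4 and 121 CPM in CON and 167, 139, 177 and 167 CPM in cKO. The groups overlapped slightly, since CON 1 lay just above cKO 2. The mean was 119 ± 17.9 CPM in CON and 162 ± 16.3 CPM in cKO (SD, n = 4), a log2 fold change of 0.45 (SE 0.11, adjusted p = 0.0435). This call was the weakest of the 4 in edgeR: it held with CON 1 left out (0.0194), and with any other library left out the adjusted p lay between 0.0526 and 0.122. It was also just missed under upper quartile scaling (0.0511) and without a count filter (0.0524).

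The other alpha chains did not pass. *Lama5*, the most widespread alpha chain of adult epithelia and vessels, had 170, 169, 128 and 147 CPM in CON and 293, 200.3, 134 and 132 CPM in cKO. Only cKO 1 and cKO 2 lay above the CON libraries, and the other cKO libraries lay within their range (log2 fold change 0.31, SE 0.25, adjusted p = 0.447; 0.00 without cKO 1 and -0.22 without both cKO 1 and cKO 2). The summed level of 8 surface epithelium markers was 2157 CPM in cKO 1, 1604 in cKO 2, 1131 in cKO 3 and 1292 in cKO 4, against 1453 to 1835 CPM in CON, and the part of these cells in the *Lama5* values was not tested. *Lama4*, the alpha chain of vessel walls, ranged from 206 to 235 CPM in CON and had 178, 159, 226 and 216 CPM in cKO, lowest in cKO 1 and cKO 2 (log2 fold change -0.15, SE 0.11, adjusted p = 0.377). The sum of 8 endothelial markers was also lowest there, at 460 and 516 CPM against 593 to 675 CPM in the other 6 libraries, and its part in the *Lama4* values was not tested. *Lama3*, the alpha chain of the hemidesmosomal laminin, ranged from 23.2 to 30.03 CPM in CON and from 18.8 to 38.2 CPM in cKO (log2 fold change -0.07, adjusted p = 0.861).

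*Lamb1* encodes the beta 1 chain that pairs with *Lamc1* in most laminins outside muscle end plates and glomeruli. It had 521, 499, 474 and 543 CPM in CON and 626, 589, 621 and 597 CPM in cKO, and the groups did not overlap. The difference was small but exceeded the spread within the groups, at 509 ± 29.8 CPM in CON and 608 ± 18.2 CPM in cKO (SD, n = 4; log2 fold change 0.26, SE 0.05, adjusted p in edgeR = 0.0320). The adjusted p ranged from 0.0288 to 0.110 with 1 library left out, and the call was lost when any of CON 2, CON 3, CON 4, cKO 2 and cKO 3 was left out. The gene lies at chromosome 12, 31265146 to 31329644, on the plus strand. The stretch of its RefSeq promoter window just before the first annotated base, chr12:31265043-31265145 in GRCm38.p6, is shown because *Lamb1* is one of the called genes, with CG dinucleotides in capitals:
Lamb1 promoter: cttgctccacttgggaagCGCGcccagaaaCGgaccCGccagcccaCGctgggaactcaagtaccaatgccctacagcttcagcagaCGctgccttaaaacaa
It holds 6 CG dinucleotides in 103 bases and has a GC content of 58.3%.

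The partners of *Lamb1* did not pass the test. *Lamc1*, the gamma chain shared by nearly all laminins, had 586, 571, 506 and 569 CPM in CON and 651, 560, 605 and 605 CPM in cKO, so that cKO 2 lay within the CON range (log2 fold change 0.12, SE 0.06, adjusted p = 0.255). *Lamb2*, the beta chain of neuromuscular junctions and kidney glomeruli, ranged from 220 to 260 CPM in CON and from 234 to 265 CPM in cKO (log2 fold change 0.03, adjusted p = 0.750). *Lamb3*, which with *Lama3* is part of the laminin of epithelial anchoring sites, varied among cKO libraries, and had 11.2 to 14.1 CPM in CON but 18.6, 14.8, 6.04 and 7.46 CPM in cKO. In this gene cKO 1 was highest and cKO 3 and cKO 4 were low, the order also seen in the surface epithelium markers, whose part was not tested. *Lamc3* had 4.42 to 16.1 CPM across the 8 libraries, with the highest and the lowest value both in cKO.

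**Figure D3:**
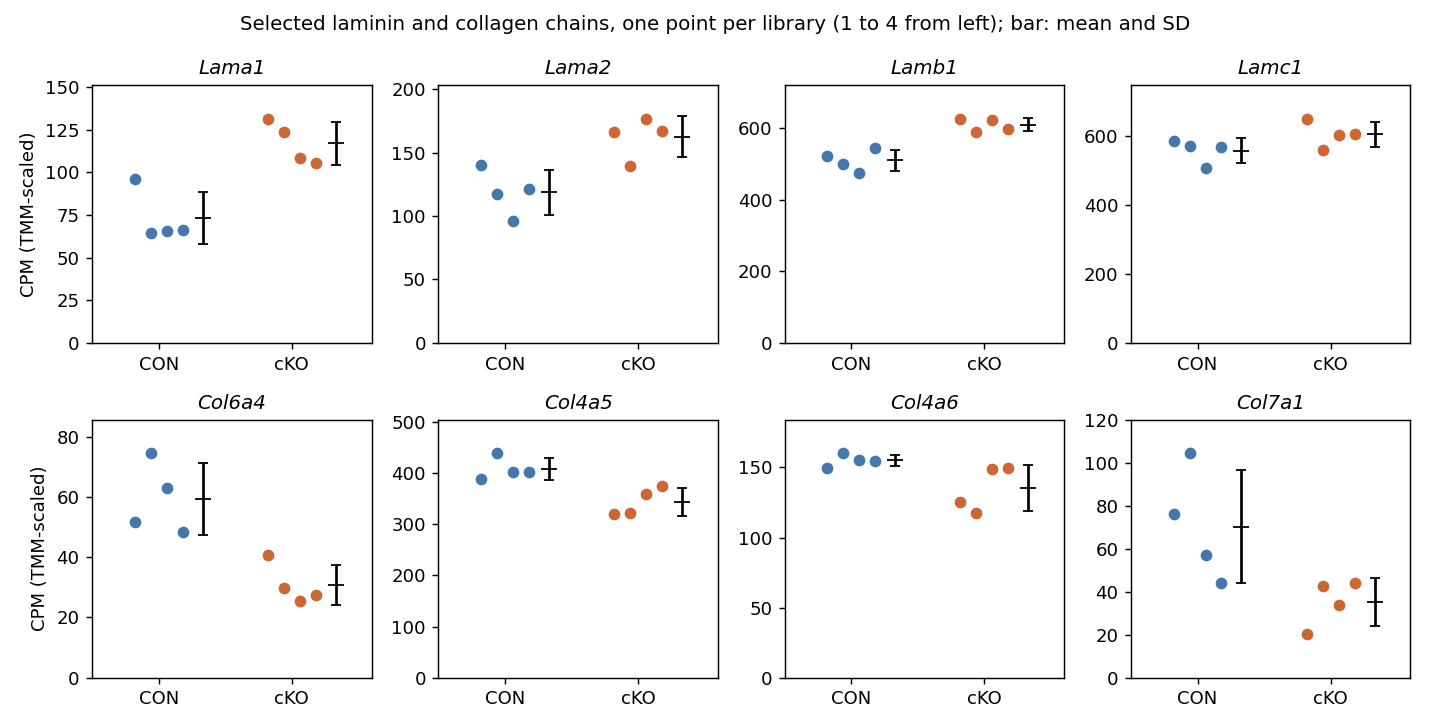
CPM per library (linear axes from 0) of 8 laminin and collagen genes; points are libraries 1 to 4 from left to right in each group, and bars are the mean and SD of 4. *Lama1*, *Lamb1*, *Col6a4*, *Col4a5* and *Col4a6* have no overlap between CON and cKO, and *Lama2*, *Lamc1* and *Col7a1* overlap.

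The make-up of the alpha chains shifted accordingly. Per kilobase of exon, *Lama1* made up 18.6%, 13.1%, 15.7% and 14.5% of all alpha chain RNA in CON 1 to CON 4 and 20.02%, 23.5%, 20.6% and 20.7% in cKO 1 to cKO 4. The ranges did not overlap, and CON 1 was again the nearest to cKO. The share of *Lama4* was 32.0% to 39.6% in CON and was lower in cKO 1 (21.75%) and cKO 2 (24.2%) than in cKO 3 (34.6%) and cKO 4 (34.02%). The share of *Lama5* showed the reverse order, with 37.96% and 32.4% in cKO 1 and cKO 2, 21.65% and 22.04% in cKO 3 and cKO 4, and 26.1% to 29.2% in CON. Among beta chains, *Lamb1* made up 52.9% to 56.9% in CON and 57.7% to 59.6% in cKO. These shares rest on the same counts as the folds above and were not tested separately.

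**Figure D4:**
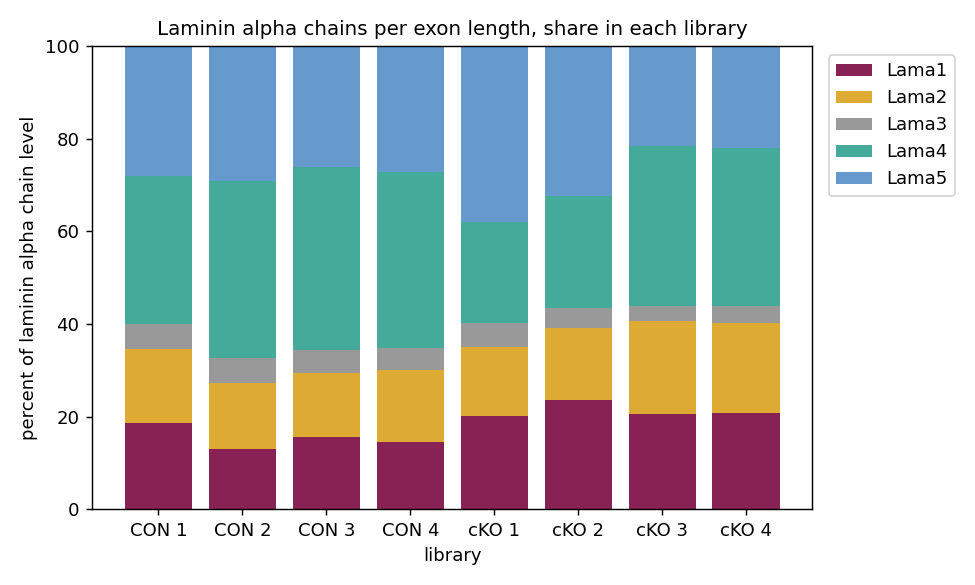
Share of each laminin alpha chain in the summed CPM per kb of the 5 alpha chains, in percent, for each of the 8 libraries. The *Lama1* share is 13.1% to 18.6% in CON and 20.02% to 23.5% in cKO, and the *Lama5* share is largest in cKO 1 and cKO 2.

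Genes for the nidogens and heparan sulfate proteoglycans did not pass. All 4 had a positive log2 fold change (49.9% of all genes), with a median of 0.12. *Hspg2*, which encodes perlecan, had 684, 626, 449 and 557 CPM in CON and 815, 618, 703 and 657 CPM in cKO, with overlap (log2 fold change 0.27, SE 0.13, adjusted p = 0.201). *Agrn*, which encodes agrin, the proteoglycan best known from the neuromuscular junction, ranged from 376 to 463 CPM in CON and from 433 to 524 CPM in cKO (0.15, SE 0.08, adjusted p = 0.234). *Nid1* and *Nid2*, the nidogens that bind both networks, had log2 fold changes of 0.09 (adjusted p = 0.491) and 0.03 (adjusted p = 0.813).

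Type IV collagen genes lie in pairs that share a start region, and 3 such head-to-head pairs make up the class. 0 of 6 passed the test, and both genes of the X-linked pair were lower at an unadjusted p under 0.05, as were 13.3% of all genes. *Col4a5*, whose product forms the networks of kidney, lung and other epithelial membranes, had 389, 439, 402 and 403 CPM in CON and 320, 323, 359 and 375 CPM in cKO. All cKO values lay below all CON values, with a log2 fold change of -0.25 (SE 0.07) and an edgeR adjusted p of 0.0507, just outside the threshold. It was inside the threshold with DESeq2 (0.00797), limma-voom (0.0466), upper quartile scaling (0.0446), library size alone (0.0491) and the filter of 10 counts in every library (0.0474). *Col4a6*, its neighbour and partner, had 150.0, 160, 155 and 155 CPM in CON and 125, 118, 149 and 149.9 CPM in cKO. The groups did not overlap, but cKO 3 and cKO 4 lay close to the lowest CON library (log2 fold change -0.20, SE 0.08, adjusted p = 0.133).

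The starts of *Col4a6* (minus strand, ending at position 141474095 of the X chromosome) and *Col4a5* (plus strand, starting at 141475370) are separated by 1274 bases. The sequence just before each start is shown because the pair lies head to head, with CG dinucleotides in capitals, read 5′ to 3′ on the strand of the gene from GRCm38.p6 (chrX:141475169-141475369, plus strand, and chrX:141474096-141474326, minus strand):
Col4a5 promoter: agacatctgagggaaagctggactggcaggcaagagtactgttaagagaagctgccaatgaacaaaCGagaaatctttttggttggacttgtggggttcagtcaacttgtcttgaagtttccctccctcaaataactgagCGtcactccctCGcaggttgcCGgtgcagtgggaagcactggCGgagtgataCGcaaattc
Col4a6 promoter: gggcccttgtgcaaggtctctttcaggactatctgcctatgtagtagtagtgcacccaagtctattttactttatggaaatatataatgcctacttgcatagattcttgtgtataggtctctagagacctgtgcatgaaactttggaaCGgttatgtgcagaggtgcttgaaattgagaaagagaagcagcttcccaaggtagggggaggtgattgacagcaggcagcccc
The *Col4a5* stretch of 201 bases holds 6 CG dinucleotides and has a GC content of 49.8%, and the *Col4a6* stretch of 231 bases holds 1 and has 45.5%.

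The log2 fold changes of the autosomal type IV pairs were all positive, and the difference from the X-linked pair was not tested. *Col4a1* had 1233, 1297, 1083 and 1182 CPM in CON and 1164, 1197, 1466 and 1424 CPM in cKO, and *Col4a2*, its neighbour, ranged from 722 to 841 CPM in CON and from 708 to 917 CPM in cKO. Both were highest in cKO 3 and cKO 4, and neither passed (log2 fold changes 0.13 and 0.06, adjusted p = 0.357 and 0.674). Within each library *Col4a1* was 1.33 to 1.37 times as high as *Col4a2* per kb in CON and 1.37 to 1.46 times in cKO. *Col4a3* and *Col4a4*, the chains of the mature glomerular membrane, had 7.04 to 17.7 and 26.8 to 55.2 CPM, and both had their highest value in cKO 1 and their lowest in cKO 2. The annotated starts of both autosomal pairs overlap, and reads there cannot be told apart if strand was not used in counting. Together, *Col4a5* and *Col4a6* made up 20.8% to 23.5% of type IV chain RNA per kb in CON and 17.5% to 19.0% in cKO, without overlap.

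Among the type VI collagens, which form beaded filaments near basement membranes, *Col6a4* fell and the 3 main chains had log2 fold changes near 0. *Col6a4* encodes a chain that in the mouse is thought to take the place of the alpha 3 chain in some trimers. It had 51.6, 74.5, 62.9 and 48.4 CPM in CON and 40.6, 29.7, 25.5 and 27.5 CPM in cKO, and all cKO libraries lay below all CON libraries. The mean was 59.4 ± 11.9 CPM in CON and 30.8 ± 6.74 CPM in cKO (SD, n = 4), a log2 fold change of -0.94 (SE 0.17, adjusted p in edgeR = 0.0239). With 1 library left out the log2 fold change lay between -1.12 and -0.81 and the adjusted p between 0.0114 and 0.0898. The edgeR call was lost without CON 2, CON 3, cKO 2 or cKO 3.

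*Col6a4* lies at chromosome 9, 105990318 to 106096828, on the minus strand, in a row with *Col6a5* and *Col6a6*. The sequence just before its start (chr9:106096829-106096941, minus strand, GRCm38.p6) is shown as that of the gene with the lowest fold change among those called, with CG dinucleotides in capitals:
Col6a4 promoter: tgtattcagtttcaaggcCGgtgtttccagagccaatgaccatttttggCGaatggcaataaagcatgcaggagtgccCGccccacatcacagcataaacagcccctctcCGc
It holds 4 CG dinucleotides in 113 bases and has a GC content of 52.2%. The neighbours of *Col6a4* on the same strand are close to it, with *Col6a5* 27854 bases away and *Col6a6* a further 27823 bases beyond, and they did not pass the test. *Col6a5* had 44.7, 41.0, 29.5 and 33.1 CPM in CON and 51.7, 35.8, 38.9 and 35.1 CPM in cKO (log2 fold change 0.12, SE 0.16, adjusted p = 0.641). *Col6a6* ranged from 136 to 231 CPM in CON and from 138 to 166 CPM in cKO (-0.18, SE 0.15, adjusted p = 0.433). The abundant chains *Col6a1*, *Col6a2* and *Col6a3* had log2 fold changes of -0.01, -0.02 and 0.06, with adjusted p-values of 0.936, 0.907 and 0.859. *Col6a3* differed among cKO libraries, with 520 and 617 CPM in cKO 1 and cKO 2 and 890 and 926 CPM in cKO 3 and cKO 4, against 641 to 792 CPM in CON.

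The network-forming, anchoring and other secreted collagens had the lowest median of all classes, -0.31 over 5 tested genes. Of these 0 passed with edgeR, while 3 were lower at an unadjusted p under 0.05, as were 13.3% of all genes. *Col7a1*, the collagen of the anchoring fibrils that fasten epithelia to the underlying tissue, had 76.3, 105, 57.0 and 44.1 CPM in CON and 20.2, 42.7, 33.9 and 44.2 CPM in cKO. The spread within CON was wide, and cKO 4 lay at the level of CON 4 (log2 fold change -1.02, SE 0.31, adjusted p = 0.0790; 0.0356 with DESeq2). *Col26a1*, a collagen first found in testis and ovary, had 111, 164, 131 and 93.5 CPM in CON and 72.3, 90.1, 87.7 and 91.8 CPM in cKO, without overlap (-0.55, SE 0.16, adjusted p = 0.0644; 0.00819 with DESeq2). *Col8a2*, a network collagen of endothelial membranes, ranged from 159 to 205 CPM in CON and from 137 to 167 CPM in cKO (-0.31, SE 0.09, adjusted p = 0.0590; 0.0159 with DESeq2). *Col8a1* had a log2 fold change of 0.03, and *Col28a1* was at or below 2.24 CPM except in CON 4 (9.27) and cKO 3 (7.77). Nerve markers were also highest in CON 4 and cKO 3, at 368 and 269 CPM in sum against 47.2 to 59.3 CPM in the other 6 libraries, and their part in the *Col28a1* values was not tested.

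The 48 RefSeq promoter windows found for 43 of the genes (300 bases each, 250 before to 50 after the start) were searched on both strands for CAAGGTCA, the extended monomer site that NR5A receptors bind, and for its core AAGGTCA, which every match of the longer motif also contains. The longer motif was in 2 member windows, those of *Col7a1* and *Col9a1*, or 4.17%, and in 1.56% of all 32851 windows. The core was in 5 member windows, or 10.4%, and in 4.72% of all windows, and *Col11a1*, *Col23a1* and *Col24a1* are the other genes with it. A match is only a match of letters. In *Col7a1* it lies before the start and reads on the minus strand, so it appears below as its reverse complement, in capitals, in chr9:108953416-108953483 (plus strand), which ends 102 bases before the start of the gene:
Col7a1 promoter: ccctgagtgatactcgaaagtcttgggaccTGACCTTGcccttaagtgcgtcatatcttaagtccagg
The windows of *Lama2*, *Lamb1* and *Col6a4* hold neither motif, and *Lama1* had no window and was not searched. Member windows were richer in GC than all windows, with a median of 60.0% against 52.7%.

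Fibrillar collagens, the bulk of the matrix RNA, showed 0 calls among 11 genes, with 2 higher and 0 lower by an unadjusted p under 0.05. At that threshold 15.5% of all genes were higher and 13.3% lower. Of the 11 log2 fold changes 10 were positive (49.9% of all genes), with a median of 0.14. *Col1a1* had 8310, 9609, 8082 and 8995 CPM in CON and 8437, 8469, 11043 and 11038 CPM in cKO. *Col3a1* had 10561, 12757, 12286 and 12778 CPM in CON and 10670, 9773, 13480 and 14109 CPM in cKO. In both genes cKO 1 and cKO 2 lay among the CON libraries or below them, and cKO 3 and cKO 4 lay above every other library (log2 fold changes 0.16 and -0.01, adjusted p = 0.370 and 0.964). *Col1a2* and *Col5a1*, the chain that starts thin fibrils, followed the same order, with log2 fold changes of 0.11 (adjusted p = 0.584) and 0.14 (0.397). *Col27a1*, a fibrillar collagen of cartilage and other young tissues, ranged from 79.9 to 83.3 CPM in CON and had 79.3, 87.1, 104 and 108 CPM in cKO (0.21, SE 0.09, adjusted p = 0.156). *Col11a2* ranged from 1.72 to 2.80 CPM in CON and had 3.82, 4.73, 5.22 and 1.66 CPM in cKO (0.83, SE 0.32, adjusted p = 0.122), at a low level.

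The fibril-associated collagens, which sit on the surface of fibrils, held 0 calls among 7 tested genes. *Col9a2* had 226, 246, 228 and 234 CPM in CON and 153, 171, 210.4 and 203 CPM in cKO, so that all cKO libraries lay below CON (log2 fold change -0.34, SE 0.09, adjusted p = 0.0561; 0.0104 with DESeq2). *Col20a1* lay above CON in all cKO libraries, at 4.98 to 5.65 CPM against 2.80 to 4.49 CPM (0.56, SE 0.18, adjusted p = 0.0834; 0.0420 with DESeq2). The abundant members *Col16a1*, *Col14a1* and *Col12a1* had log2 fold changes of -0.04, 0.12 and 0.09, with adjusted p-values of 0.904, 0.503 and 0.626. *Col18a1*, a basement membrane multiplexin whose end fragment is endostatin, had 695, 677, 659 and 708 CPM in CON and 863, 892, 745 and 718 CPM in cKO. The groups did not overlap, and cKO 4 lay close to CON 4 (0.23, SE 0.07, adjusted p = 0.0783; 0.0300 with DESeq2). *Col15a1*, the other multiplexin, ranged from 539 to 673 CPM in CON and had 451, 538, 859 and 873 CPM in cKO (0.17, SE 0.20, adjusted p = 0.628). Of the transmembrane collagens *Col13a1*, *Col17a1*, *Col23a1* and *Col25a1*, 0 had an unadjusted p under 0.05, and their log2 fold changes ran from -0.25 to 0.19.

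Within cKO, the collagens split by library, a pattern that was noticed in the values and is given as a description. In 20 of the 56 genes, or 35.7%, cKO 3 and cKO 4 both lay above all the other 6 libraries, where 5.89% of all tested genes did so. These 20 include *Col1a1*, *Col1a2*, *Col3a1*, *Col4a1*, *Col4a2*, *Col5a1*, *Col6a1*, *Col15a1*, *Lama2* and *Nid1*. In 14 genes, or 25.0%, cKO 1 and cKO 2 both lay below all the other libraries (14.2% of all tested genes), *Col4a5*, *Col4a6*, *Col6a3*, *Col9a2* and *Lama4* among them. The opposite place, cKO 1 and cKO 2 above the rest, was taken by *Agrn*, *Col18a1*, *Lama1*, *Lama5* and *Lamb3*, or 8.93% against 13.8% of all genes. Summed over the fibrillar collagens, cKO 1 and cKO 2 had 27400 and 26200 CPM and cKO 3 and cKO 4 had 35450 and 36150 CPM, against 26890 to 31770 CPM in CON. Some sums of other cell markers also differed by this split. The 6 stromal markers summed to 2304 and 2645 CPM in cKO 1 and cKO 2 and to 3453 and 3461 CPM in cKO 3 and cKO 4 (2827 to 3378 CPM in CON). The largest part was *Dlk1*, with 964, 1243, 1749 and 1749 CPM from cKO 1 to cKO 4. *Wt1* of the same list went the other way, with 415, 429, 363 and 373 CPM. The smooth muscle and pericyte sum was 738 and 1067 CPM in cKO 1 and cKO 2 and 2000 and 2586 CPM in cKO 3 and cKO 4. In CON that sum was 2360 to 3288 CPM, so cKO 3 lay below every CON library, unlike in the collagens above. The part of these cells in the collagen values was not tested. Without cKO 1 and cKO 2, edgeR called 6 of the 56 genes higher, *Col15a1*, *Col17a1*, *Col27a1*, *Col5a1*, *Col6a3* and *Lamb1*, and *Col6a4* and *Lamb3* lower. These were 10.7% and 3.57% of the 56, and in the same fit 2.04% of all genes were higher and 3.21% lower. All of the higher genes but *Lamb1* are among the 20 with cKO 3 and cKO 4 above the rest. The libraries left out are those in which many collagens lay low, so this fit restates the split and is no separate result.

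**Figure D5:**
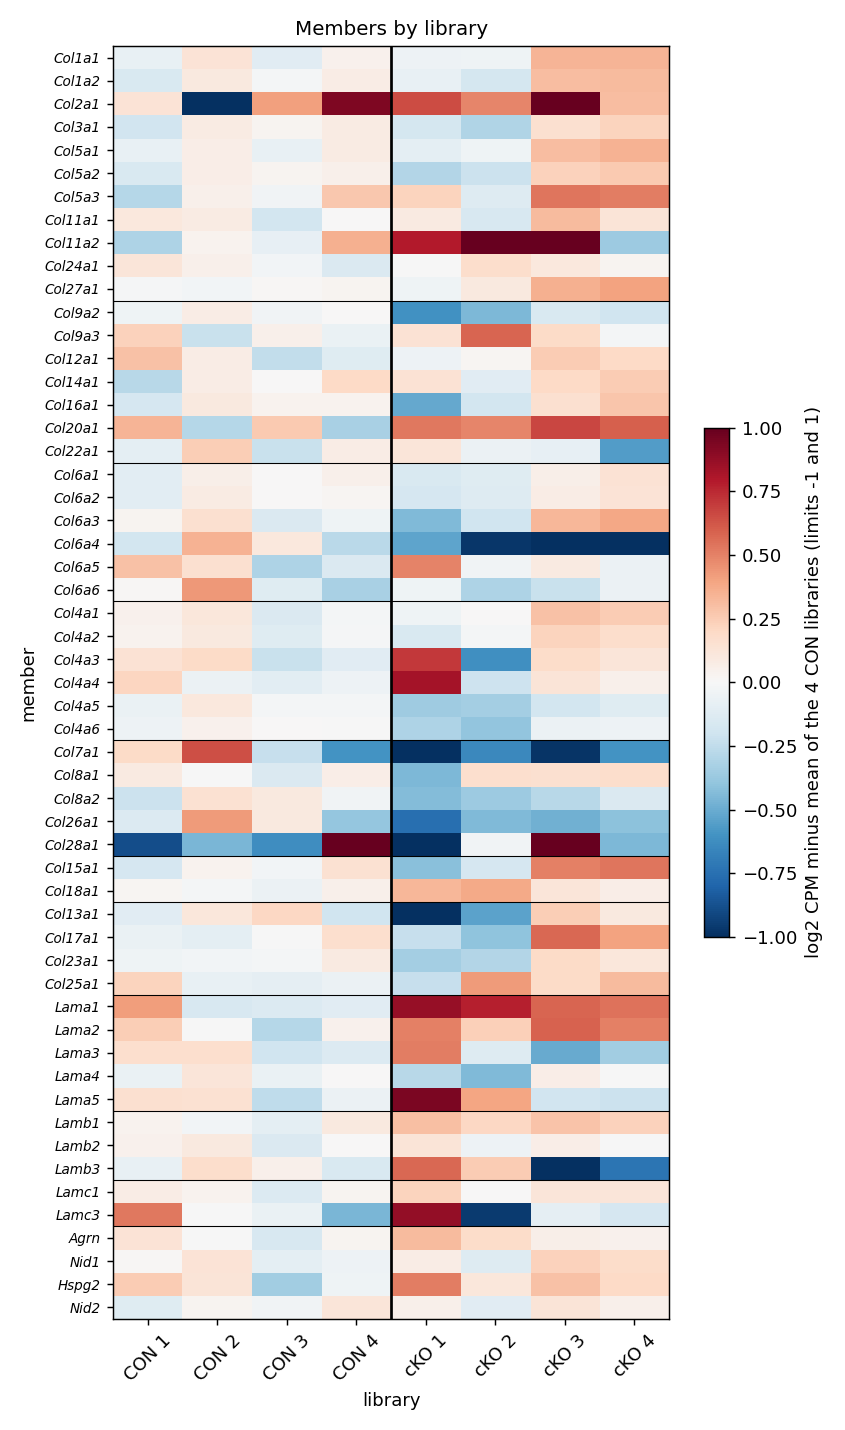
Log2 CPM of 55 of the 56 tested genes (rows, by class) minus the mean of its 4 CON libraries, for each library (columns); red is higher and blue lower, and colours stop at -1 and 1. Most fibrillar collagens are red in cKO 3 and cKO 4 and near white or blue in cKO 1 and cKO 2, while *Lama1* and *Lamb1* are red in all 4 cKO libraries and *Col6a4* is blue in all 4.

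Genes that act on collagens and laminins were counted in the same fit. Of 16 tested collagen and laminin receptors, 2 were higher and 0 lower, where 3.64% of all genes were higher and 3.28% lower. *Dag1*, which encodes dystroglycan, a laminin receptor, had 671, 594, 582 and 621 CPM in CON and 919, 810, 747 and 725 CPM in cKO, without overlap (log2 fold change 0.38, SE 0.08, adjusted p = 0.0323). *Itga6*, the integrin alpha 6 chain of laminin-binding integrins, had 424, 329, 311 and 345 CPM in CON and 508, 609, 484 and 423 CPM in cKO (0.52, SE 0.12, adjusted p = 0.0409). CON 1 lay just above cKO 4 in *Itga6*. Both calls were lost when any of CON 2, CON 3, CON 4, cKO 2 and cKO 3 was left out, and that of *Itga6* also without cKO 1, with adjusted p-values up to 0.113 for *Dag1* and 0.126 for *Itga6*. DESeq2 called both (0.000562 and 0.00116). *Itgb1*, the partner chain of many such integrins, ranged from 795 to 898 CPM in CON and from 660 to 864 CPM in cKO (-0.16, SE 0.08, adjusted p = 0.215), and *Itga11*, a collagen-binding integrin chain, had a log2 fold change of 0.25 (adjusted p = 0.257).

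The enzymes and partners of collagen held 0 calls in edgeR in each of the other lists. By an unadjusted p under 0.05, 15.5% of all genes were higher and 13.3% lower. Among 19 enzymes and chaperones of collagen synthesis, 3 were higher and 1 lower at that threshold. *P4ha3*, a subunit of the prolyl hydroxylase that stabilises the triple helix, came nearest, with 6.92 to 8.31 CPM in CON against 8.80 to 11.46 CPM in cKO (log2 fold change 0.46, SE 0.13, adjusted p = 0.0537). *Colgalt2*, a collagen galactosyltransferase, had a log2 fold change of 0.41 (adjusted p = 0.0697). That of *Mia3*, a factor for export of collagen from the endoplasmic reticulum, was 0.11 (0.142). That of *Ppib*, a prolyl isomerase, was -0.20 (0.142). Among 14 tested genes for processing and cross-linking, 2 were higher and 0 lower by an unadjusted p under 0.05: *Bmp1*, which removes the C-propeptide of procollagen (0.23, adjusted p = 0.0751), and *Adamts2*, which removes the N-propeptide (0.15, adjusted p = 0.110). Among 17 tested accessory proteins of basement membranes, *Hmcn1*, which encodes hemicentin, ranged from 37.6 to 49.3 CPM in CON and from 51.2 to 52.7 CPM in cKO, without overlap (0.27, SE 0.09, adjusted p = 0.0946). *Npnt*, which encodes the integrin ligand nephronectin, ranged from 262 to 348 CPM in CON and had 175, 161, 252 and 285 CPM in cKO (-0.52, SE 0.18, adjusted p = 0.103). Among 18 fibril-binding proteoglycans and glycoproteins, *Thbs1*, which encodes thrombospondin 1, had the smallest p (0.39, SE 0.15, adjusted p = 0.124), with 440 CPM in cKO 2 and 275 to 299 CPM in the other cKO libraries, against 230 to 295 CPM in CON.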

How the data were processed

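RNA of whole ovaries at PND4 was measured in 8 libraries, 4 CON and 4 cKO. Per the labels and the study's methods, the authors filtered the reads on quality scores, mapped paired-end stranded mRNA reads with STAR (genome GRCm38, mm10), and featureCounts gave read counts per gene. Their versions, the annotation release and the strand setting are not given in the sources used here, so reads of overlapping genes may be shared. The deposited counts were used as they are. The deposited CPM and the authors' own DESeq2 comparison (fold changes and p-values) were not used. The column names give the genotype but do not single out a sample title. The labels give no litter or batch, so p-values measure the spread between these libraries.

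Of 24823 gene IDs, 99.7% matched a symbol. The test was the robust quasi-likelihood F test of edgeR 4.0.16 under R 4.3.3, after TMM scaling and filterByExpr, with genotype as the only term, and p-values were adjusted by Benjamini-Hochberg over all 15257 genes tested. A call is an adjusted p under 0.05, and the SE is the size of the log2 fold change divided by the square root of F. Assigned reads were 17383905 to 29066847 in CON and 14649243 to 24142142 in cKO. Levels between genes are CPM over the joined exon length of all transcripts of a gene in GENCODE vM21 (GRCm38), and promoter windows are from RefSeq (GRCm38.p6). DESeq2 1.42.0, limma-voom (limma 3.58.1), other scalings, other count filters, a fold threshold of 1.5 and fits without 1 or 2 libraries were alternatives, and DESeq2 with each library left out was added after seeing the data. The main edgeR fit was also run on simulated counts with 200 changed genes, and the alternative fits were not. Simulated libraries of a group differed only in depth and random spread. The genes, classes, pathway lists and marker lists were chosen with earlier results of these data known. Named are all called genes, in each class up to 4 genes with the smallest p and up to 4 with the highest mean CPM, genes that failed the filter, in each pathway list up to 4 genes with the smallest p, *Nr5a2* and *Amhr2*. *Col28a1* was chosen after its values were seen. Protein sequences were not used here. Results for 1 gene are not reported here, although it stays in the counts of genes.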

Additional observations from a re-analysis of the deposited data

Results flagged for a closer look

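In 6 of 116 groups of 4 libraries, 1 value stood apart from the other 3 by a Dixon test at the 95% level, which chance gives in about 1 of 20 groups. *Lama1* had 96.0 CPM in CON 1 and 64.5 to 66.4 CPM in the other CON libraries. *Col4a4* had 35.9 CPM in CON 1 and 28.8 to 29.99 CPM in the others. *Col25a1*, a transmembrane collagen of neurons, had 13.7 CPM in CON 1 and 11.04 to 11.3 CPM in the others. *Col28a1* had 9.27 CPM in CON 4 and 1.20 to 1.653 CPM in the others. *Col23a1* had 67.6 CPM in CON 4 and 61.5 to 62.5 CPM in the others. *Col8a1* had 17.2 CPM in cKO 1 and 26.3 to 26.7 CPM in the other cKO libraries.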

How the results depend on the processing

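The 4 called genes kept their direction in all 26 alternative fits, and 33 of the 56 genes tested kept theirs in every fit that gave a value. The share of all genes that did so was not counted. The main counts were 3 genes higher and 1 lower in cKO. Leaving out 1 library gave 0 to 4 higher and 0 to 4 lower with edgeR, and 3 to 6 higher and 1 to 7 lower with DESeq2. Over all genes, these edgeR fits called 0% to 6.68% higher and 0% to 4.79% lower. The DESeq2 fits called 3.14% to 9.6% of all genes higher and 2.81% to 7.07% lower. Without cKO 1 and cKO 2 there were 6 higher and 2 lower (against 2.04% and 3.21% of all genes). Many collagens lay low in cKO 1 and cKO 2, so the higher calls of that fit are no separate result. Without CON 1 and CON 3 there were 1 higher and 0 lower (against 0.491% and 0.523% of all genes). The count of lower genes was 2 with upper quartile scaling, with library size alone and with at least 10 counts in every library (each adds *Col4a5*), and 3 with limma-voom. In the same order, 4.35%, 2.46%, 3.72% and 3.83% of all genes were lower. DESeq2 gave 5 higher and 6 lower, and a fold change of at least 1.5 left 1 higher and 1 lower (0.891% and 0.518% of all genes). The DESeq2 calls over all genes were also more than those of edgeR, with 1216 higher and 1012 lower against 555 and 501. The cause of these differences was not tested, other than that a fit without a library has fewer samples. Scaling by library size alone moved the median of all genes to 0.03 (log2). No paired analysis was possible because the labels share no replicate numbers between CON and cKO. Depth limits the low genes: *Col2a1*, under 1 CPM in all libraries, had an SE of 0.54 on the log2 scale, and *Col9a1* and *Col19a1* could not be tested.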
